A study of Mus musculus with 6 samples.

Results

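Transcripts typical of hepatocytes, the main cells of liver, were measured in adipose tissue of mouse offspring. They form a list of 39 genes, chosen by their role in liver and on their measured values in the chromium restriction arrays, which earlier work on the same data had shown to be high on 2 of them. Each was represented by the probe set that the platform annotation pairs with that symbol alone. Of the 39 genes, 37 had such a probe set, out of 22180 genes measured in all; Serpina3k and Gc are not analysed here. They fell into 19 plasma protein genes (of 21 listed), 10 enzymes of the urea cycle and of amino acid and urate breakdown, and 8 regulators, transporters and other enzymes.

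The 6 samples were adipose tissue of offspring aged 32 weeks, 1 array each. In 3 samples the mother had eaten a chromium restriction diet, and in 3 a control diet. The labels give neither strain, sex nor fat depot, and do not say that the samples came from separate animals or litters, so any p-value measures the spread between these samples only. The number of arrays limits the precision, and 3 against 3 is a small comparison. All values are the deposited ones, taken to be on a log2 scale on which a step of 1 is a doubling of signal; a difference is always a chromium restriction array minus the mean of the 3 controls unless stated otherwise, and 3 values of a group always stand in the order of replicates 1, 2 and 3. Array medians over all probe sets ran from 5.44 to 5.57.

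Hepatocytes make most of the proteins of blood plasma, convert ammonia to urea, break down amino acids, release glucose and take up bile acids. These functions depend on transcription factors that work together in the liver cell, among them HNF4A and C/EBP proteins. Fat cells are not known as a source of most of these transcripts, though some of the enzymes are active in many tissues. In RNA from whole tissue, more cells of a type and more RNA per cell cannot be told apart.

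The arrays of the chromium restriction group did not behave alike. In chromium restriction replicate 1 the median difference of the 37 genes was 4.62, in replicate 3 it was 3.96, and in replicate 2 it was -0.22. The same median over all 22180 genes was -0.01, -0.02 and -0.03 in replicates 1, 2 and 3. In replicate 1, 36 of 37 genes lay above every control, where 26.8% of all genes did so, and 35 of 37 lay above every control by more than 1, where 1.40% of all genes did so. In replicate 3 the counts were 36 of 37 (20.3% of all genes) and, by more than 1, 32 of 37 (1.20% of all genes). In replicate 2, 0 of 37 lay above every control (18.8% of all genes) and 24 of 37 lay below every control (25.9% of all genes). Below every control lay 0 of 37 in replicate 1 and 0 of 37 in replicate 3, against 32.3% and 29.1% of all genes. Because the genes were chosen with these values known, the counts are a description and are given without a test.

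**Figure D1:**
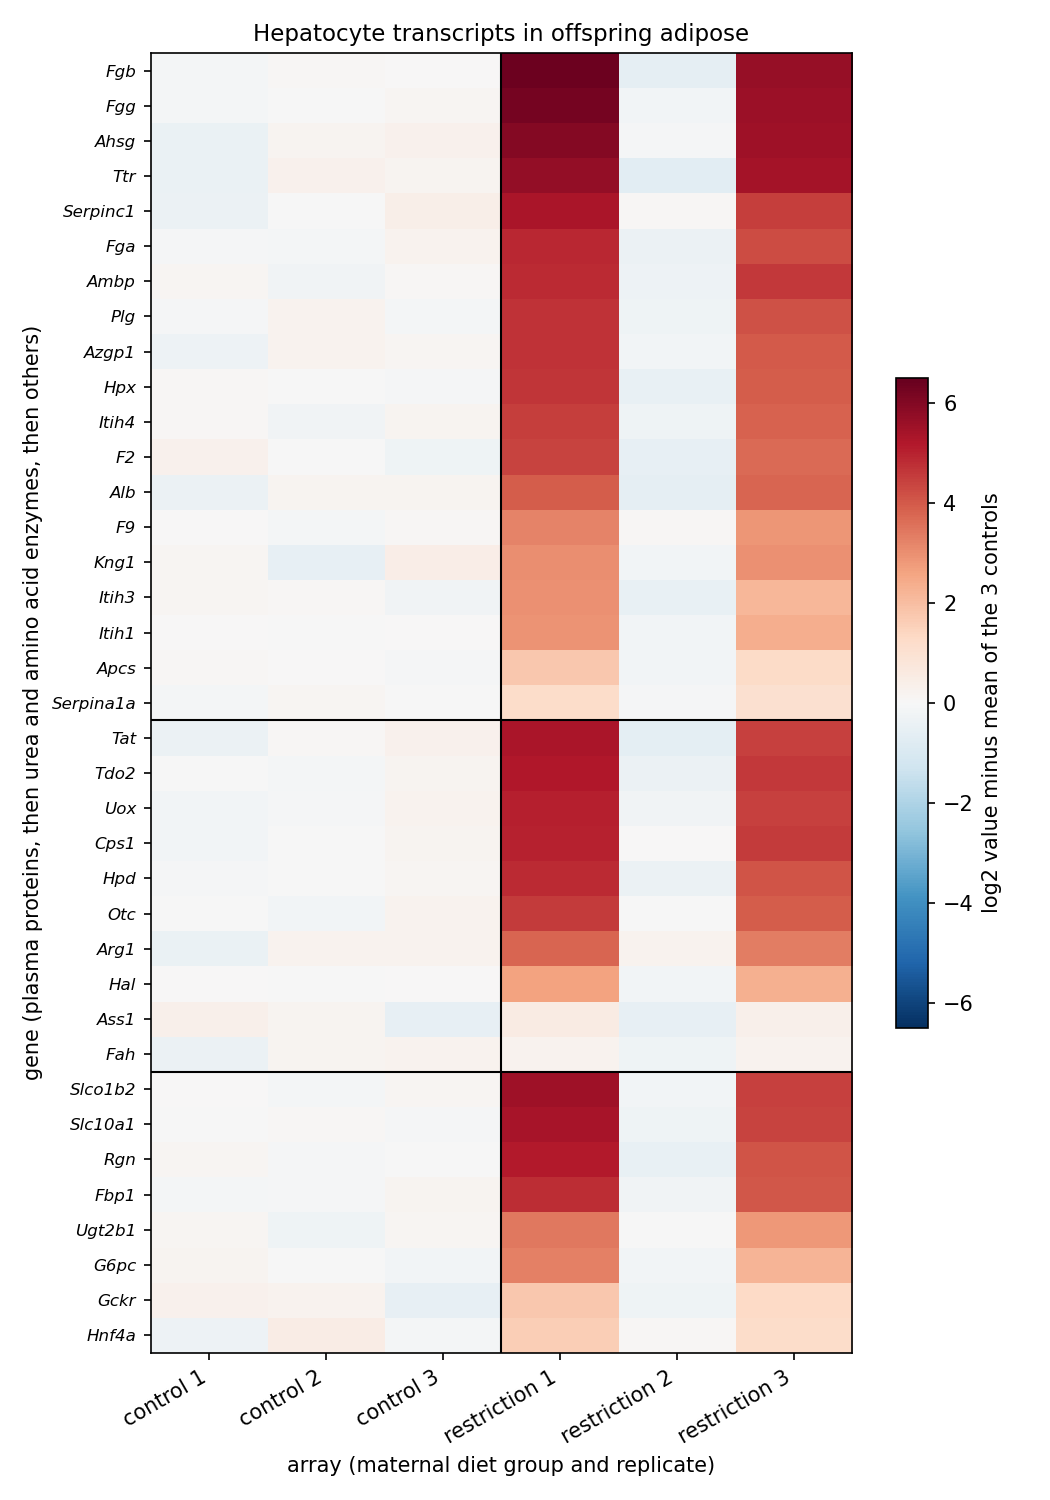
Heat map of 37 hepatocyte transcripts (rows, in the 3 groups named on the axis, separated by lines) on 6 arrays (columns). Colour gives the log2 value minus the mean of the 3 controls; chromium restriction replicates 1 and 3 are red for nearly all genes, with differences up to 6.36, while replicate 2 stays near or below the controls, between -0.69 and 0.22.

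The group means therefore hide a split between arrays. In the limma fit over all genes (chromium restriction against control, Benjamini-Hochberg adjustment, two-sided) 0 of 37 passed an adjusted p of 0.05, against 0.194% of all genes, and 6 of 37 had an unadjusted p under 0.05, against 5.95% of all genes. In 0 of 37 genes did all 3 chromium restriction arrays lie above every control, against 3.53% of all genes. All 37 had a higher mean in the chromium restriction group, as did 43.2% of all genes, and the median log2 difference between group means was 2.82, against -0.02 over all genes. The median SD within the chromium restriction group was 2.66 for the 37 genes and 0.14 for all genes, while within the controls it was 0.19 and 0.13. With chromium restriction replicate 2 left out, 33 of 37 passed (limma, 2 arrays against 3), where 1.98% of all genes did. The members were chosen for their high values on the 2 arrays kept, so that count follows from the choice and supports nothing. The counts were 0 of 37 without replicate 1 (0.162% of all genes) and 0 of 37 without replicate 3 (0.108%). With replicates 1 and 3 both left out, the median log2 difference was -0.22.

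The median difference of the 19 plasma protein genes was 4.62 in replicate 1 and 3.93 in replicate 3, that of the 10 urea and amino acid enzymes 4.70 and 4.01, and that of the 8 other genes 4.11 and 3.45. The groups thus had like medians, and the plasma protein genes are described first. Alb encodes albumin, the most abundant plasma protein. Its values were 9.37, 9.98 and 9.98 on the control arrays, while the chromium restriction arrays had 13.72, 9.17 and 13.55. Replicates 1 and 3 lay far above the controls and replicate 2 below the lowest of them, so the groups overlapped (12.15 ± 2.58 against 9.77 ± 0.35, SD, n = 3; limma adjusted p = 0.844). Ttr encodes transthyretin, which carries thyroid hormone and retinol-binding protein. It was listed at 6.62, 7.36 and 7.25 in the controls and at 12.79, 6.38 and 12.47 in the chromium restriction arrays, the same split with a larger gap.

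The 3 chains of fibrinogen, the clotting protein assembled from products of the neighbouring genes Fga, Fgb and Fgg, were high side by side on the same arrays. Fgb was at 5.41, 5.61 and 5.58 in the controls and at 11.89, 4.94 and 11.17 on the chromium restriction arrays. Its differences of 6.36 in replicate 1 and 5.64 in replicate 3 were the largest of the 37 genes on either array. Fgg was at 4.85, 4.95 and 5.07 in the controls, against 11.20, 4.79 and 10.54. Fga was at 5.13, 5.10 and 5.46, against 10.14, 4.83 and 9.49. In replicate 2 each of the 3 chains lay below its lowest control.

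To show what genes that shared this pattern have in front of them, the 250 bases upstream of the annotated start are printed for Alb, the member with the highest value on any array, for the 3 fibrinogen genes and for Fah, an enzyme gene whose arrays overlapped (values further on). Sequences are those of RefSeq on assembly GRCm38.p6, written 5′ to 3′ on the gene's strand and ending at the base before the start; capitals mark CAAAGTCCA, a site of HNF4, and TTGCNNAA, a C/EBP site, on either strand. The windows lie at chr5:90460620-90460869 on the plus strand for Alb, chr3:83025903-83026152 on the plus strand for Fga, chr3:83007474-83007723 on the plus strand for Fgg, chr3:83049864-83050113 on the minus strand for Fgb and chr7:84605943-84606192 on the minus strand for Fah.
Alb: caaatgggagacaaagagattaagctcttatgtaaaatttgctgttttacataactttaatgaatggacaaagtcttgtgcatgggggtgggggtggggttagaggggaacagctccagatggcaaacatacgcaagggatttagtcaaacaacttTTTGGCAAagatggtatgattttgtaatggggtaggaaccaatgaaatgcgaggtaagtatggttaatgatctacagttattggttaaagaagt
Fga: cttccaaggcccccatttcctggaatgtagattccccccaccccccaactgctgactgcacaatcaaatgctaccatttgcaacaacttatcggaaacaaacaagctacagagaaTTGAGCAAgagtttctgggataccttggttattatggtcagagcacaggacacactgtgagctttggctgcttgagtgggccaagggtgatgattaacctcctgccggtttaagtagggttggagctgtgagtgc
Fgb: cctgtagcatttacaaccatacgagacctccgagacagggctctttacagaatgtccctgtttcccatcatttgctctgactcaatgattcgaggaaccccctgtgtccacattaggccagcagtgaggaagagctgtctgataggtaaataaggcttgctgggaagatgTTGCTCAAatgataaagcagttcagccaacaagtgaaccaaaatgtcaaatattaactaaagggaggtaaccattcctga
Fgg: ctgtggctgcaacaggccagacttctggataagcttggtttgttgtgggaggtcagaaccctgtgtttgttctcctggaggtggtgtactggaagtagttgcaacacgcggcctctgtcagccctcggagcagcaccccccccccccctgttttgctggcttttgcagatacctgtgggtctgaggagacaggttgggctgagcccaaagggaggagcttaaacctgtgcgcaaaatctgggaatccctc
Fah: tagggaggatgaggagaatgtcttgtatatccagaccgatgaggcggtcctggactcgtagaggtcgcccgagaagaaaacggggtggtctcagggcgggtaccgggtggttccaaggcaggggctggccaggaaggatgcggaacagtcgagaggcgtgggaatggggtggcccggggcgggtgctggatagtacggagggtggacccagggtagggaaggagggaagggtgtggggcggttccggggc
In Alb the C/EBP letters began at position -94 from the start, in Fga at -135 and in Fgb at -80. The Fgg and Fah windows held none of these letters, although Fgg had the next largest difference after Fgb in replicate 1 (6.24).

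A promoter window was found for 32 of the 39 listed genes, taking the first listed start of each. TTGCNNAA occurred on either strand in 9 of 32 windows (28.1%), against 9.55% of 27025 windows of the same length, and the TATA box letters TATAAA in 5 of 32 (15.6%) against 12.97%. CAAAGTCCA occurred in 0 of 32, against 0.381% of all windows. In the windows of 30 of the further hepatocyte genes listed further on, TTGCNNAA occurred in 4 (13.3%), TATAAA in 2 (6.67%) and CAAAGTCCA in 1 (3.33%). A match is a run of letters and not a measured binding site, and members without a match, such as Fgg, were high on the same arrays.

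Other genes of clotting and its control were also high in replicates 1 and 3, but differed in where replicate 2 lay. F2 encodes prothrombin and was at 5.94, 5.64 and 5.39 in the controls and at 10.04, 5.13 and 9.36 in the chromium restriction arrays. Serpinc1, which encodes antithrombin, was at 4.84, 5.16 and 5.60 against 10.51, 5.25 and 9.69, with replicate 2 inside the control range. In F2 and Plg replicate 2 lay below every control, and in F9 and Kng1 inside their range. Plg encodes plasminogen, the precursor of the enzyme that dissolves clots, and F9 encodes clotting factor IX; their differences in replicate 1 were 4.72 and 3.20, and in replicate 3 they were 4.16 and 2.86. Kng1, which encodes kininogen, differed by 3.05 and 2.97. It was the plasma protein gene in which replicates 1 and 3 lay closest, 0.08 apart, and also the one with the widest spread over the controls (4.82 to 5.75).

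Carrier proteins and inhibitors followed. Ahsg encodes fetuin-A, a protein that binds calcium phosphate, and was at 6.02, 6.63 and 6.75 in the controls and at 12.46, 6.38 and 11.99 in the chromium restriction arrays. Hpx, which encodes the haem carrier hemopexin, was at 6.06, 5.98 and 5.92 against 10.61, 5.50 and 9.92. Ambp, the precursor gene of alpha-1-microglobulin and bikunin, differed by 4.85 in replicate 1 and 4.58 in replicate 3. The inter-alpha-trypsin inhibitor heavy chains, which are joined to bikunin, differed by 4.52 and 3.84 for Itih4, 2.91 and 2.35 for Itih1, and 2.97 and 2.14 for Itih3. Azgp1 encodes zinc-alpha-2-glycoprotein, a plasma protein that adipose tissue is also known to secrete. It was at 5.21, 5.77 and 5.67 in the controls and at 10.27, 5.37 and 9.53 in the chromium restriction arrays, so that its control values lay near the array medians.

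A pair of plasma protein genes differed less. Serpina1a encodes an alpha-1-antitrypsin, the inhibitor of neutrophil elastase, and was at 5.996, 6.212 and 6.101 in the controls and at 7.30, 6.02 and 7.16 in the chromium restriction arrays. It belongs to a cluster of near-identical mouse genes, and the share of its signal that comes from the other copies was not tested. Apcs, which encodes serum amyloid P, was at 5.06, 4.98 and 4.90 against 6.76, 4.81 and 6.23. In both genes replicates 1 and 3 still lay above every control.

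**Figure D2:**
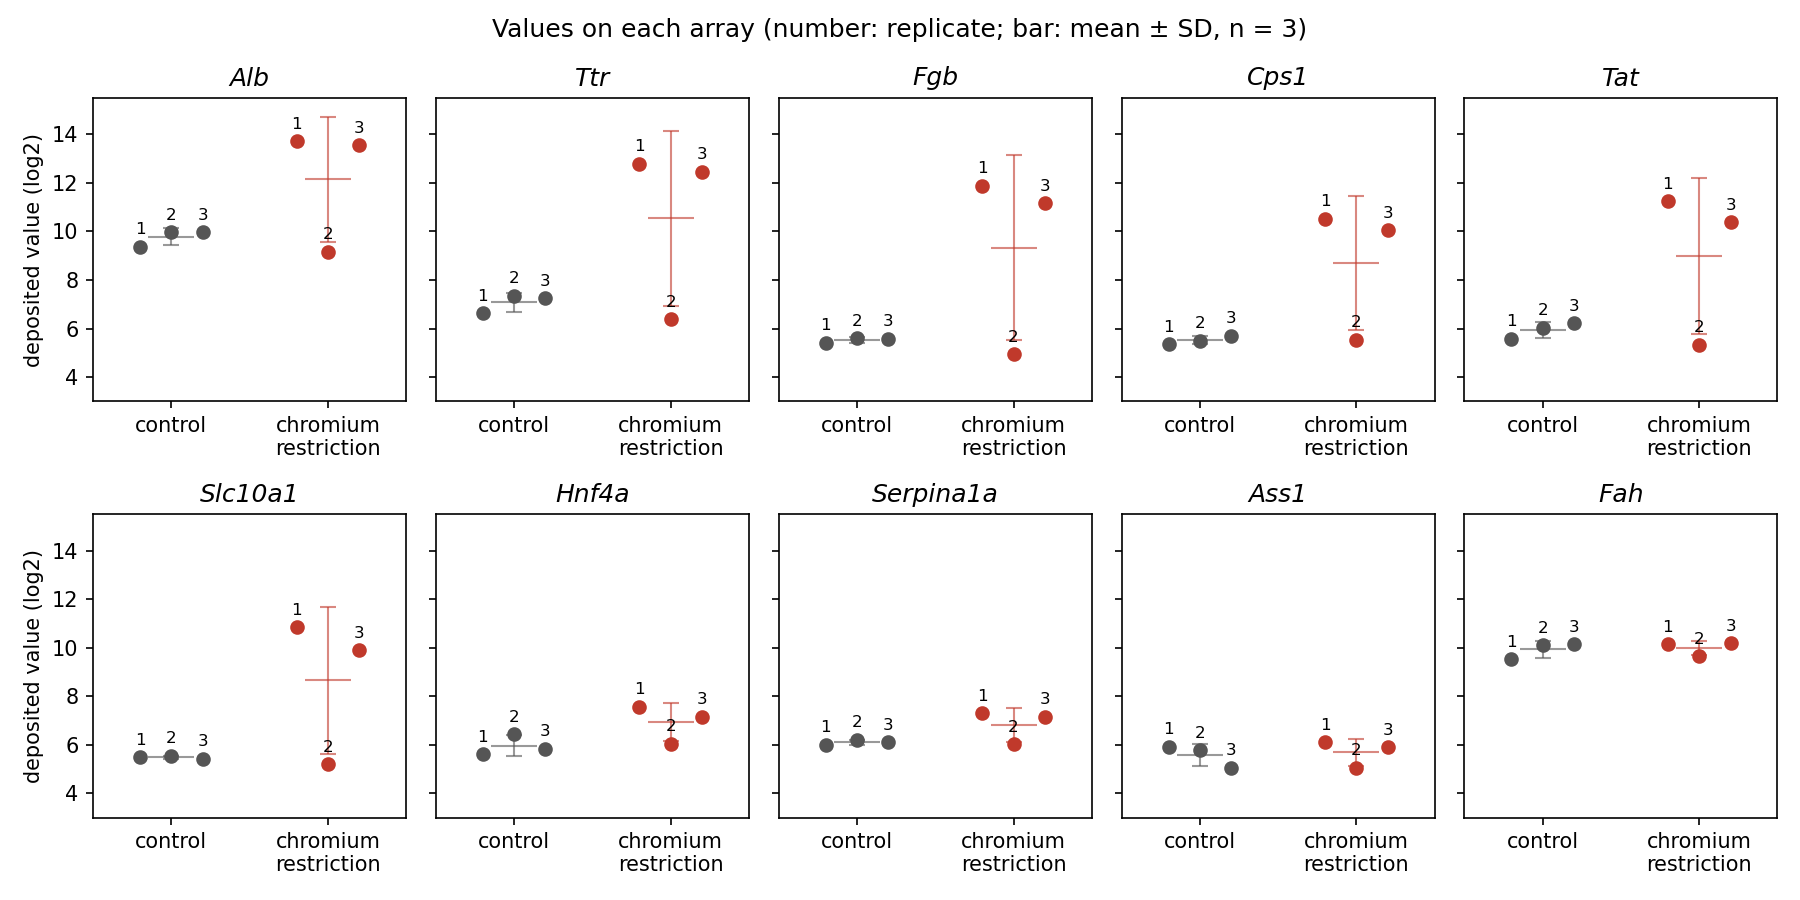
Deposited log2 values of 10 hepatocyte transcripts on each array; points are arrays with their replicate number, and bars give mean ± SD over 3 arrays of a group. In the first 8 panels chromium restriction replicates 1 and 3 lie above all controls and replicate 2 lies within or below them, for example Alb at 13.72, 9.17 and 13.55; in Ass1 and Fah the groups overlap on a narrow range.

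Among the urea and amino acid enzymes, 8 of 10 repeated the split and 2 did not. Cps1 encodes carbamoyl phosphate synthetase, the first enzyme of the urea cycle, and was at 5.35, 5.51 and 5.71 in the controls and at 10.52, 5.54 and 10.06 on the chromium restriction arrays. Otc, the next enzyme of the cycle, was at 4.86, 4.70 and 5.09 against 9.44, 4.84 and 8.84. Arg1 encodes arginase, the last enzyme of the cycle, which some macrophages also make; it was at 4.999, 5.682 and 5.676 against 9.24, 5.67 and 8.80. In all 3 genes replicate 2 lay inside the control range.

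Ass1, the argininosuccinate synthetase gene of the same cycle, did not follow them. It was at 5.93, 5.78 and 5.06 in the controls and at 6.11, 5.06 and 5.90 in the chromium restriction arrays, and the log2 difference between group means was 0.10 ± 0.34 (SE, n = 3; limma adjusted p = 0.997). Only replicate 1 lay above every control, by less than the range of the controls. The enzyme is active in many tissues besides liver.

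Enzymes that break down single amino acids were high on the same arrays. Tat, tyrosine aminotransferase, was at 5.58, 6.04 and 6.22 in the controls and at 11.25, 5.33 and 10.38 in the chromium restriction arrays. Hpd acts on the product of Tat and was at 6.70, 6.74 and 6.89 against 11.63, 6.41 and 10.85. Tdo2, which opens the ring of tryptophan, was at 5.08, 5.01 and 5.29 against 10.34, 4.76 and 9.73. In each of these 3 genes replicate 2 lay below the lowest control. Hal, which acts on histidine, had the tightest controls of the 37 genes (5.45 to 5.50, SD 0.03) and was at 8.10, 5.31 and 7.77. Uox, the urate oxidase gene, differed by 5.07 in replicate 1 and 4.43 in replicate 3.

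Fah encodes the last enzyme of tyrosine breakdown. It was at 9.53, 10.11 and 10.15 in the controls and at 10.14, 9.65 and 10.18 in the chromium restriction arrays, and the log2 difference between group means was 0.06 ± 0.22 (SE, n = 3; limma adjusted p = 0.997). Replicates 1 and 3 lay within 0.03 of the highest control. Tat and Hpd, upstream in the same pathway, differed by over 4 on both arrays, so genes of 1 pathway differed in how far these arrays lay from the controls.

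The last group holds regulators, transporters and other enzymes. Slc10a1 encodes the bile acid importer of the hepatocyte membrane. It was at 5.49, 5.54 and 5.44 in the controls, a range of 0.11, and at 10.84, 5.21 and 9.91 in the chromium restriction arrays. Slco1b2, an importer of organic anions, was at 4.884, 4.757 and 5.002 against 10.38, 4.69 and 9.33. Rgn, which encodes regucalcin, was at 5.34, 5.13 and 5.17 against 10.37, 4.75 and 9.33. Fbp1 and G6pc encode enzymes of glucose production; Fbp1 differed by 4.78 in replicate 1 and 4.05 in replicate 3, and G6pc by 3.25 and 2.22. Ugt2b1, a glucuronosyltransferase of a family with similar sequences, differed by 3.43 and 2.84.

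The regulators differed less. Hnf4a encodes the nuclear receptor named above, and was at 5.60, 6.44 and 5.83 in the controls and at 7.57, 6.05 and 7.16 in the chromium restriction arrays. Gckr encodes the protein that holds glucokinase in the nucleus, and was at 5.66, 5.58 and 4.85 against 7.14, 5.10 and 6.65. In both genes replicates 1 and 3 lay above the highest control, in replicate 3 by less than 1.

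Replicates 1 and 3 could be compared gene by gene. Replicate 1 was higher than replicate 3 in 36 of 37 genes, all but Fah, against 11194 of all 22180 genes. In the 37 genes the difference between these 2 arrays had a median of 0.60. It ran from -0.04 for Fah to 1.05 for Slco1b2, and over all 22180 genes its median was 0.003. For the 35 genes that lay more than 1 above the control mean on both arrays, the values were turned to a linear scale and the control mean subtracted. The amount in excess of the controls was 1.60 times as large in replicate 1 as in replicate 3 at the median, with quartiles of 1.40 and 1.73 and a range of 1.06 (Kng1) to 2.32 (G6pc). The median was 1.60 for plasma proteins, 1.55 for urea and amino acid enzymes and 1.83 for regulators, transporters and other enzymes. Alb, at 1.13, and Ttr, at 1.26, were toward the low end, and Slco1b2, Rgn and Itih3, with G6pc, exceeded 2. Array signal flattens at high levels, and its part in these ratios was not tested.

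**Figure D3:**
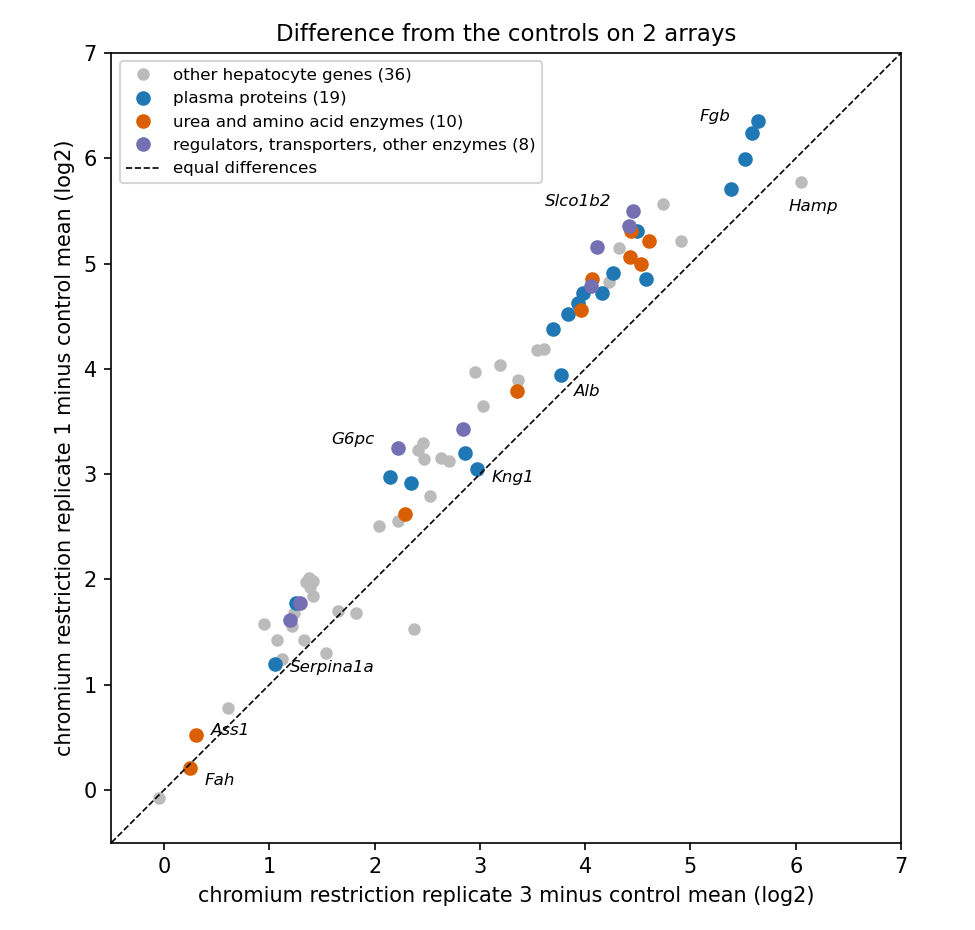
Log2 difference from the control mean in chromium restriction replicate 1 (vertical) against replicate 3 (horizontal), 1 point per gene, coloured by group; grey points are 36 other hepatocyte genes and the dashed line marks equal differences. Of the 37 members 36 lie above the line, with a median gap of 0.60, and Fah and Ass1 lie near the origin.

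The 6-array patterns were close to each other. Across 666 pairs of the 37 genes the median Pearson correlation over 6 arrays was 0.99, and 35 of 37 correlated above 0.9 with the mean of the 37, the exceptions being Ass1 at 0.63 and Fah at 0.56. These correlations rest on 2 arrays that share high values in nearly all members and are a description without a test.

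On the other 4 arrays the genes spread around the array median. Below it lay 20, 20 and 18 of the 37 genes on the 3 control arrays and 26 in chromium restriction replicate 2, while 0 did in replicates 1 and 3. Below the lower quartile of the array, taken like its median over all probe sets, lay 1, 5 and 1 on the controls and 5 in replicate 2. Few members were thus among the dimmest probe sets, which include those without a gene symbol. The range over the 3 controls had a median of 0.36 and was widest for Kng1 (0.93). No single control was the richest: control replicate 1 was the highest of the 3 for 10 genes, replicate 2 for 9 and replicate 3 for 18. Alb (9.37 to 9.98) and Fah (9.53 to 10.15) were the members with control values far above the array medians.

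A list of 41 further hepatocyte genes, none of them a member, was set beside the members; 36 were measured. In chromium restriction replicate 1, 35 of 36 lay above every control (26.8% of all genes), and in replicate 3 likewise 35 of 36 (20.3% of all genes). In replicate 2, 8 of 36 lay above every control, a share near that of all genes (18.8%). Of these, Apoa1, an apolipoprotein gene, was at 7.44 against 5.50 to 6.27. The glucose transporter gene Slc2a2 was at 6.72 against 5.41 to 6.03. The rest were Serpinf2, Mbl2, F7, F10, Cyp8b1 and Nr1h4, with differences of 0.13 to 0.46. Over the 36 genes the median difference was 2.53, -0.08 and 2.30 in replicates 1, 2 and 3. Hamp, the iron hormone hepcidin, was higher in replicate 3 (10.93) than in replicate 1 (10.65), with controls at 4.55, 4.51 and 5.57. In the limma fit 0 of 36 passed an adjusted p of 0.05 (0.194% of all genes). This list was also chosen with earlier results known.

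Hepatocytes differ along the axis of the liver lobule, and genes known from both ends were measured. The 7 genes known from cells around the central vein were mixed, with a median difference of 1.16 in replicate 1 and 0.59 in replicate 3; 6 of 7 lay above every control in replicate 1 (26.8% of all genes) and 5 of 7 in replicate 3 (20.3%). Cyp1a2 differed by 4.11 and 3.22 in replicates 1 and 3, Gulo, which completes vitamin C synthesis, by 4.31 and 2.63, and Lect2 by 2.65 and 2.07. Oat, an ornithine enzyme, differed by 0.97 and 0.59, the glutamate transporter gene Slc1a2 by 1.16 and 0.38, and the ammonium transporter gene Rhbg by 0.37 and -0.28, the last below every control in replicate 3. Cyp2e1, a cytochrome that adipocytes also make, was at 13.11, 13.28 and 13.20 in the controls and at 12.88, 12.88 and 12.79 in the chromium restriction arrays. Of 6 listed genes known from cells around the portal vein, 4 were measured. All 4 lay above every control in replicates 1 and 3 (26.8% and 20.3% of all genes). In replicate 2 all 4 lay below every control (25.9% of all genes). Their median difference was 3.10 in replicate 1 and 2.98 in replicate 3. Hsd17b13, a lipid droplet enzyme, differed most, at 10.71, 5.85 and 9.88 against 6.04 to 6.46. Cyp2f2 differed least, by 1.25 and 1.24 in replicates 1 and 3.

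Markers of the other cells of liver had smaller differences. For bile duct cells 0 of 6 measured genes lay above every control in replicate 1 and 1 of 6 in replicate 3. Of 6 Kupffer cell genes 4 and 3 did so in replicates 1 and 3 (26.8% and 20.3% of all genes), with Clec4f, the most selective of them, at 6.76, 5.76 and 6.31 against 5.87 to 6.46 in the controls. Of 7 genes of the liver sinusoid endothelium 6 and 4 did so, and of 5 stellate cell genes 4 and 3, shares above those of all genes. Clec4g, one of them, was at 6.43, 5.19 and 6.06 against 4.82 to 5.48. Dnase1l3, another, was at 6.42, 6.07 and 6.31 against 5.65 to 5.66, above every control on all 3 arrays (limma adjusted p = 0.275). Without replicate 2 its limma adjusted p was 0.015. It was the only gene of the 4 lists to pass there, against 1.98% of all genes. That setting was picked out on the members' values, so the 0.015 supports nothing. In replicate 3, 1 of 7 sinusoid and 1 of 6 Kupffer genes lay below every control (29.1% of all genes). The sinusoid gene was Lyve1, at 8.53, 9.02 and 7.15 against 8.52 to 9.32. The Kupffer gene was Folr2, at 10.31, 9.68 and 8.17 against 8.71 to 10.03, so above every control in replicate 1. The median differences in replicate 1 were -0.07 for bile duct, 0.53 for Kupffer, 0.71 for sinusoid and 0.45 for stellate cell genes, and in replicate 3 they were -0.02, 0.19, 0.33 and 0.16. In the limma fit with all 6 arrays 0 genes of these 4 lists passed an adjusted p of 0.05 (0.194% of all genes). Unadjusted p was under 0.05 for 1 of 6 bile duct, 2 of 6 Kupffer, 2 of 7 sinusoid and 0 of 5 stellate genes. Of all genes 5.95% had such a p. The bile duct gene, Sox9, was lower (log2 difference -0.28) and the others were higher.

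Genes of other abdominal tissues were examined in the same way. The 12 genes of intestinal epithelium had a median difference of 1.11 in replicate 2, where 11 of 12 lay above every control (18.8% of all genes), and of 0.06 and -0.04 in replicates 1 and 3. Some genes of the list differed from this pattern. Phgr1 lay below every control in replicate 2 (difference -0.12), and Lgals4 differed by 0.30, 0.31 and 0.71 in replicates 1, 2 and 3. Fabp2, the intestinal fatty acid binding protein gene, was at 5.27, 5.50 and 5.04 in the controls and at 7.30, 7.15 and 7.31 in the chromium restriction arrays. It lay above every control on all 3 and passed in limma (log2 difference 1.98, adjusted p = 0.00358), though 0 genes passed once 64 rows written with more digits than the rest were left out of the fit. Pancreas, kidney tubule and epididymis lists had medians between -0.10 and 0.14 on all 3 arrays. Adipocyte genes were high throughout: Fabp4 was at 13.53 to 13.72 and Lep at 11.754 to 12.005 over the 6 arrays. Among 12 measured adipocyte genes 9 lay below every control in replicate 1 (32.3% of all genes), 4 in replicate 2 (25.9%) and 6 in replicate 3 (29.1%), and the glucose transporter gene Slc2a4 was at 8.04, 9.10 and 8.23 against 9.08 to 9.35. In limma 2 of the 12 adipocyte genes passed as higher, Retn (log2 difference 1.52) and Pparg (1.98). Adipoq passed as lower (-1.22), and 0.194% of all genes passed in either direction. Adipoq, Retn and Pparg lie in the rows with more digits, and 0 of the 37 hepatocyte genes do. The part of liver, intestinal or fat cell content in these differences was not tested.

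**Figure D4:**
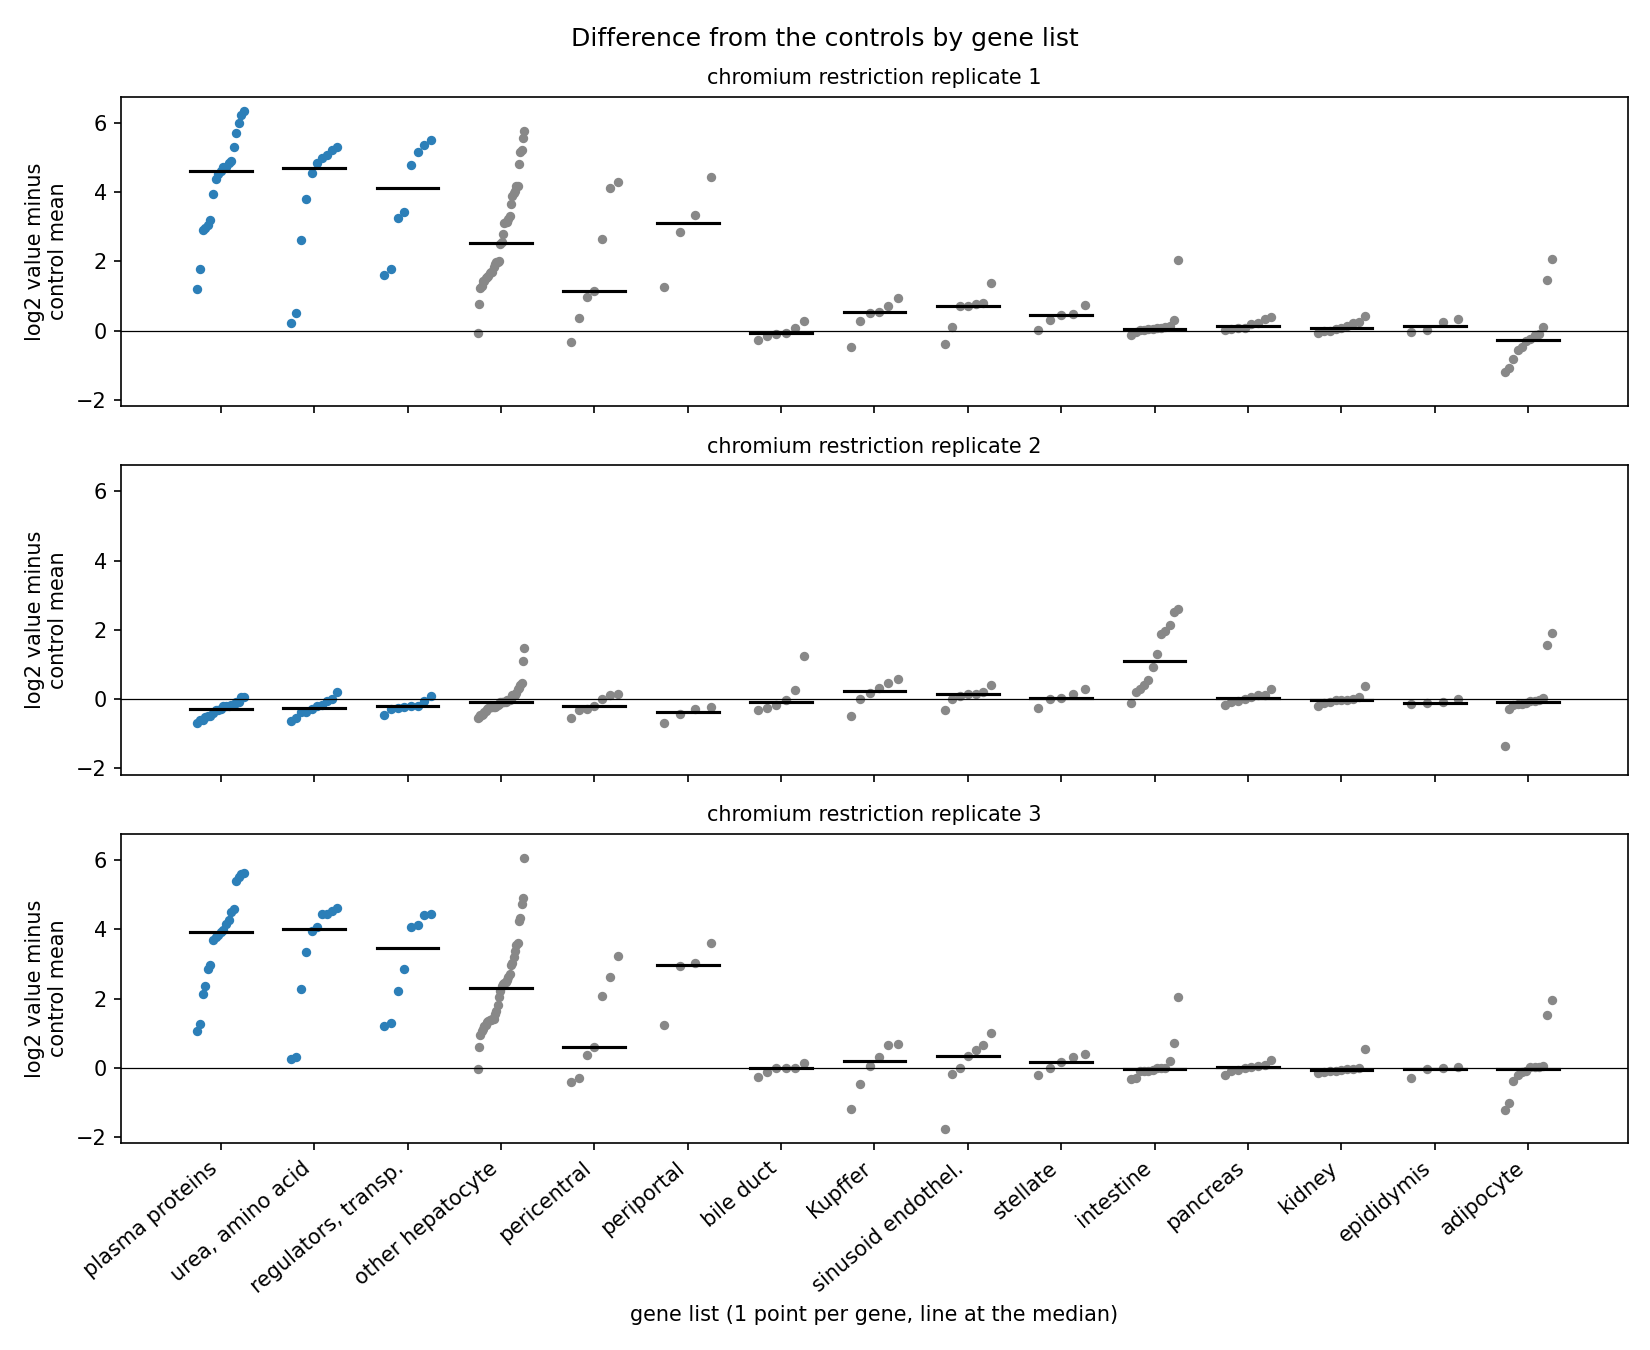
Log2 difference from the control mean for each gene (points, ordered by size within a list; line at the median) in 15 gene lists, with 1 panel per chromium restriction replicate; blue marks the 37 hepatocyte transcripts. The lists of the members and of other hepatocyte genes are high in replicates 1 and 3 (medians of 4.62 and 3.96 over the 37 genes) and the intestinal list in replicate 2 (median of 1.11).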

How the data were processed

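Total RNA of 6 adipose samples was labelled with biotin and hybridised to 1 array each, per the labels. The authors deposited 1 table of 33793 probe sets, whose values were taken as log2 from their range; the sources used here do not give summarisation, normalization, log base or background level, so differences are between listed values and low ones may understate a change. Probe sets with 1 symbol in the platform annotation (23521) were kept, and the one with the highest mean over 6 arrays stood for each of 22180 genes. All 37 members had 1 probe set.

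Group differences came from limma 3.58.1 (lmFit, eBayes; R 4.3.3) without a filter, with Benjamini-Hochberg adjustment over all genes. The script was tested on simulated data. The members and lists were chosen with earlier results of these data known. All members are reported, those named singly by level, by size of difference or by departure from their group; the genes most like them were ranked by Pearson correlation with the members' mean. Replicate numbers were checked for pairing: deviations of same-numbered arrays correlated at -0.12, -0.095 and 0.078, so they were not treated as pairs. Alternatives covered normalization, filtering, variance model, weights, probe set choice, blocking and arrays left out.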

Additional observations from a re-analysis of the deposited data

How the results depend on the processing

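With all 6 arrays, 0 of the 37 genes passed in limma under each alternative tried, 33 of which survived the filter on dim genes. Unadjusted p fell under 0.05 for 0 to 34 of them. The 0 came with trend and robust eBayes (1123 of 22180 genes) and the 34 with array weights (2123 of 22180 genes). Those weights were 0.545, 0.745 and 2.365 for chromium restriction replicates 1, 2 and 3. The members were chosen for high values on replicate 3, so the 34 supports nothing. Leaving out 1 array gave 0 to 33 passing members, 33 without chromium restriction replicate 2, and 24 to 439 passing genes in all, against 43. The replicate number as a block (replicate block) gave 0 passing genes, with 1337 at an unadjusted p under 0.05, and 0 passing members; 0 of 3 chromium restriction arrays correlated best with its own number. Leaving out the rows with extra digits gave 0 passing genes (1265 unadjusted), and leaving out chromium restriction replicates 1 and 3 gave 6. In that last setting the members' median log2 difference turned to -0.22 and 32 of 37 genes had a negative one. Over all genes the median there was -0.02. The cause was not tested, and the 1 remaining array is assumed to vary like the controls. Members above every control in chromium restriction replicate 2 numbered 0 to 3 when 1 control was left out. With all controls kept the number was 0, where 18.8% of all genes lay above. In every other setting with all 6 arrays the median lay between 2.81 and 3.23. Without chromium restriction replicate 1 it was 1.83, without replicate 3 it was 2.22 and without replicate 2 it was 4.28.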

Other observations

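Of all 22180 genes, 143 had a Pearson correlation above 0.99 with the members' mean over the 6 arrays. They were 28 of the 37 members and 115 genes outside the members. Each member is part of that mean, so these counts are not alike. Outside the members, the 10 genes most like the members' mean were Hc, Cyp2j5, Igfbp1, F11, Hrg, Fetub, Cyp4a14, Nat8f2, Hgd and Cyp2a12. Hc encodes complement component C5 and was at 4.93, 5.02 and 4.97 in the controls and at 9.09, 4.80 and 8.51 on the chromium restriction arrays. Cyp4a14, a fatty acid hydroxylase of liver, was at 5.05, 5.48 and 5.40 against 11.23, 4.86 and 10.23. Hgd, which acts between Hpd and Fah in tyrosine breakdown, was at 4.97, 5.05 and 5.22 against 9.17, 5.04 and 8.61. Fetub, a relative of Ahsg, was at 5.116, 5.005 and 5.183 against 8.92, 4.93 and 8.30. Igfbp1, a binding protein of insulin-like growth factors, was at 5.24, 5.21 and 5.30 against 6.74, 5.18 and 6.57. These likenesses rest on the same 6 arrays and carry no test.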
